A study of Mus musculus with 4 samples.

Results

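Receptor tyrosine kinases other than the ErbB family were followed in mouse mammary tumour cells with and without Pak1, a p21-activated serine/threonine kinase that acts downstream of Rac and Cdc42. The set held 10 genes chosen by name: Met, Mst1r, Axl, Kit, Pdgfra, Pdgfrb, Fgfr1, Fgfr2, Fgfr3 and Ddr1. Every non-control probe that the array's design named for one of them was taken, which gave 14 of 39429 probes, and the brightest probe of a gene over the 4 arrays stood for it. The cells were grown out of tumours of MMTV-Neu mice, whose transgene places the Neu oncogene (the rat form of Her2, gene Erbb2) under the mouse mammary tumour virus promoter, a promoter active mainly in mammary epithelium. All samples therefore shared the Neu transgene and a tumour origin, and all had spent 3 h without serum followed by 15 min with EGF. They differed in the Pak1 genotype: 2 samples were Pak1-/- and 2 were Pak1+/+, each group coming from 2 different tumours, and the age of the mice is not given in the sources used here. The material is cultured tumour-derived cells, so a value describes the cell population on the plate and not the tumour. Total RNA was labelled with Cy3 and hybridised to a single-colour Agilent array of 60-base probes.

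A receptor tyrosine kinase spans the plasma membrane, binds a ligand outside the cell and, once paired with a second receptor, phosphorylates tyrosines that recruit adaptor proteins to Ras, phosphoinositide 3-kinase and phospholipase C. In the mammary gland, FGF receptors and Met take part in branching of the ducts, Ddr1 senses collagen in the epithelium, and Kit marks a population of luminal progenitors. PDGF receptors belong mainly to fibroblasts and pericytes, and Axl is commonly found in cells with mesenchymal features. These receptors are also known as parallel routes to the pathways that Her2 uses.

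The letters of the probes set what each measurement can and cannot tell apart. The Met probe and 1 probe each for Fgfr1 and Fgfr3 are shown to let the letters of different receptors be compared. No annotation of their build was used here, so whether they lie in coding sequence is not stated. Capitals mark the longest run of letters that the Fgfr1 and Fgfr3 probes of this group share, which was 8 bases. The Met probe has no such run in common with them and is printed in lower case only. Each is written 5′ to 3′ as deposited, with mm9 positions.
Met (chr6:17503299-17503358, + strand): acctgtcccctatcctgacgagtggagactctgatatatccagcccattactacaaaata
Fgfr1, the second brightest of its probes (chr8:26684061-26684120, + strand): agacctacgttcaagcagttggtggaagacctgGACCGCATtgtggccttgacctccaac
Fgfr3, the second brightest of its probes (chr5:34077856-34078090, + strand): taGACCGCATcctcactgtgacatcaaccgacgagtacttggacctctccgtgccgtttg
The Fgfr3 probe spans more genome than its 60 letters, as a probe across a splice junction does. Over the 86 pairs of probes of different receptors, the longest shared run was 16 bases, between the dimmest Fgfr1 probe and the Ddr1 probe, and every other pair shared at most 8.

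The 2 probes for Fgfr2 are shown for another reason: they overlap over most of their length, yet their measured differences were unlike each other. They share 42 of 60 bases on the minus strand of mm9 chromosome 7, shifted by 18 bases, so each has 18 letters of its own and no letter is in capitals.
Own bases of the brighter Fgfr2 probe (chr7:137307473-137307532): atgccttatgaaccctgt
Own bases of the dimmer Fgfr2 probe (chr7:137307455-137307514): gtgaatgtgtcttcctgt

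The arrays were alike in signal, with a median spot intensity of 322 to 331 and 62.2% to 70.4% of probes well above background, the lowest share being on Pak1+/+ replicate 2. The probe for Pak1 itself did not follow the labels, at 12.23 on the log2 scale in Pak1-/- and 12.04 in Pak1+/+ (difference 0.19, SE 0.068, adjusted p = 0.070 by limma). Whether that probe lies in the deleted stretch is not given in the sources used here, so every direction below rests on the labels. The Pak1-/- arrays took positions 1 and 2 on the slide and the Pak1+/+ arrays 3 and 4, so position and genotype cannot be told apart. The Erbb2 probe was lower in Pak1-/- by 0.31 on the log2 scale (11.93 against 12.23, adjusted p = 0.020). Whether it reads the rat transgene, the mouse gene or both was not determined here. The luminal keratins Krt8 and Krt18 were well above background on all 4 arrays. The lists for other cell types were mixed: Dcn, Lum and Col3a1 of fibroblasts, Rgs5 and Des of pericytes, Tek, Tie1 and Emcn of endothelium, Lyz2 and Laptm5 of leukocytes and Cpa3, Fcer1a and Ms4a2 of mast cells were above background on no array, while Col1a1, Mcam, Notch3, Kdr, Pecam1, Itgam, Cd14, Cd3e and Tpsb2 from the same lists were above it on all 4.

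Of the 10 receptors, 8 were well above background on all 4 arrays and were tested. Fgfr1, Fgfr2 and Ddr1 were higher in Pak1-/- cells, Axl, Kit and Fgfr3 were lower, and Met and Pdgfra did not pass the threshold (an adjusted p of 0.05 in limma, over all 27229 probes tested). Mst1r and Pdgfrb were above background on no array and have no tested value. The 6 of 8 that passed stand beside 51.0% of the 22006 genes tested, so most of the array differed too, and the count is not read as particular to the receptors. By direction, 3 receptors were higher, where 22.8% of all genes were, and 3 were lower, where 28.2% were. Axl, Fgfr1, Fgfr3 and Ddr1, which is 4 of the 8, passed with a change of at least 2-fold, beside 12.6% of all genes. Both this count and the median size below rest on the brightest probes. By the mean over probes, Fgfr1 differed by 0.80, which is under 2-fold, and Fgfr3 by -1.09. In 7 of the 8, Met being the exception, every value of a group lay on the same side of the other group, beside 77.6% of all genes. The median difference of the 8 receptors was -0.14 on the log2 scale and the median size, whatever the sign, was 1.02, against -0.055 and 0.32 for all genes tested. Since probes differ in how strongly they bind, differences and not levels are compared between receptors here, and a sum of levels over a marker list, which its brightest probes dominate, is compared only between arrays. In RNA from a whole culture, fewer cells of a kind and less RNA per cell cannot be told apart.

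**Figure D1:**
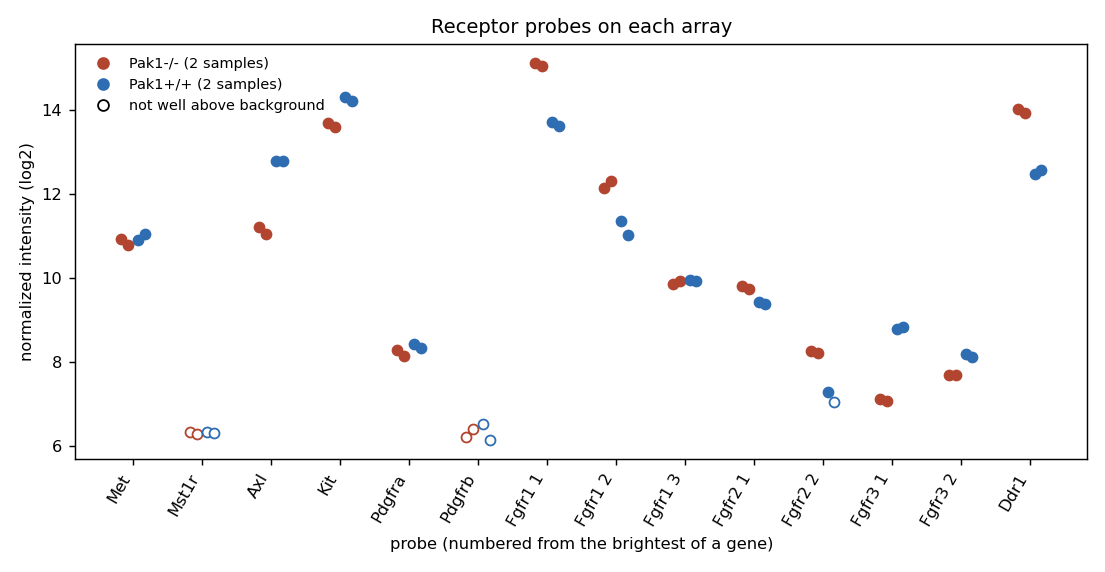
Normalized log2 intensity (vertical axis) of the 14 probes for the 10 receptors (horizontal axis, numbered within a gene from the brightest) on each array, with Pak1-/- samples in red, Pak1+/+ samples in blue and open circles where a probe was not well above background. The pairs of replicates lie close together, and the group means differ by over 1 on the log2 scale for Axl, the 2 brighter Fgfr1 probes, the dimmer Fgfr2 probe, the brightest Fgfr3 probe and Ddr1.

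The FGF receptors moved in opposite directions within their family. Fgfr1, which binds many FGFs and is the form most often amplified in breast cancer, was higher in Pak1-/- cells. Its brightest probe (A_55_P2057777, chr8:26685072-26685131) read 15.12 and 15.05 in Pak1-/- against 13.71 and 13.62 in Pak1+/+. Both Pak1-/- values lay above both Pak1+/+ values, by 1.42 on the log2 scale on average (SE 0.077, 95% interval 1.21 to 1.62, adjusted p = 0.00040), a ratio of 2.67. The probe printed above, 1011 bases upstream on the same strand, read 12.14 and 12.31 against 11.34 and 11.03, again without overlap (difference 1.04, SE 0.13, adjusted p = 0.0038). The dimmest probe (A_55_P1967015, chr8:26685820-26685879), the one farthest downstream, read 9.84 and 9.93 against 9.95 and 9.92. The groups overlapped on it, and its difference of -0.049 (95% interval -0.24 to 0.14, adjusted p = 0.61) lies outside the intervals of the other 2 probes, so the gene's probes disagree. This is the probe that shares a run of 16 bases with the Ddr1 probe. The mean over the 3 probes differed by 0.80.

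Fgfr2, the receptor whose epithelial form answers Fgf7 and Fgf10, was higher on both of its probes, by unlike amounts. The brighter probe (A_55_P2094881) read 9.81 and 9.74 in Pak1-/- against 9.42 and 9.38 in Pak1+/+. The groups did not overlap, and the difference of 0.37 (SE 0.071, 95% interval 0.18 to 0.56, adjusted p = 0.012) was the smallest of the 6 that passed. Leaving out Pak1+/+ replicate 1 or Pak1+/+ replicate 2 kept the size (0.39 and 0.35) and ended the call (adjusted p = 0.055 and 0.071). The dimmer probe (A_51_P432403), spotted 10 times on each array, read 8.25 and 8.21 against 7.27 and 7.04, a difference of 1.08 (SE 0.10, adjusted p = 0.0016). It was above background on 1 of the 2 Pak1+/+ arrays, and its difference was 1.80 when the scanner's own background-subtracted signals were used instead. The intervals of the 2 probes (0.18 to 0.56 and 0.81 to 1.34) do not meet although 42 of their bases are the same.

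Fgfr3, best known as a brake on bone growth and as an oncogene of urothelium, was lower in Pak1-/- cells on both of its probes. On its brightest it had the largest change of the set, a rank that passes to Axl by its other probe or by the mean over both. Its brightest probe (A_55_P1996578, chr5:34079649-34079708) read 7.11 and 7.05 in Pak1-/- against 8.78 and 8.84 in Pak1+/+. The difference of -1.72 (SE 0.072, 95% interval -1.91 to -1.53, adjusted p = 0.00021) corresponds to a ratio of 3.30. The probe printed above, 1793 bases upstream, read 7.67 and 7.69 against 8.18 and 8.11, lower by a smaller amount (-0.46, SE 0.070, adjusted p = 0.0061). The choice between these sizes rests on a mean over the 4 arrays of 7.94 for the first probe and 7.91 for the second, and the mean over both probes differed by -1.09. These are dim probes, and the difference on the first went to -2.54 with the scanner's background-subtracted signals.

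Among the relatives of the FGF receptors, Fgfrl1, which binds FGFs but lacks a kinase domain, was higher by 1.35 (15.90 and 15.53 against 14.32 and 14.41, adjusted p = 0.0020). Fgfr4 was lower by 0.37 (7.49 and 7.63 against 7.90 and 7.95, adjusted p = 0.020), a call that was lost without Pak1-/- replicate 1, without Pak1+/+ replicate 1 and without Pak1+/+ replicate 2 (highest adjusted p = 0.097), with differences of -0.63 to -0.30 over the alternatives. By their brightest probes, Fgfr4 and Fgfr3 were lower, and Fgfr1, Fgfr2 and Fgfrl1 higher, in the same cultures. The calls for Fgfr4 and Fgfr2 depended on the samples kept. Whether these changes lay in the same cells was not measured.

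**Figure D2:**
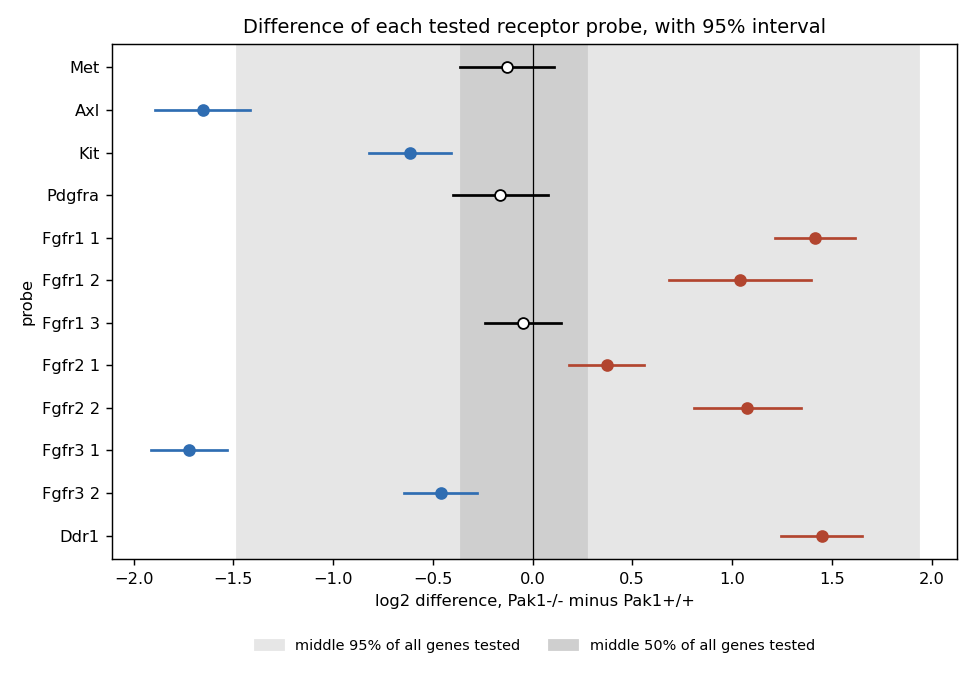
Difference in log2 intensity, Pak1-/- minus Pak1+/+ (horizontal axis), for the 12 receptor probes tested (vertical axis), with 95% intervals from limma, filled symbols past the threshold (red higher, blue lower) and grey bands for the middle of all genes tested. Axl and the brightest Fgfr3 probe fall below the wider band, while Met, Pdgfra and the third Fgfr1 probe lie inside the narrower one.

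Of the 18 FGF genes looked for, all on the array, 7, among them Fgf2 and Fgf10, were above background on no array. Of the 10 tested, 2 were higher (Fgf1 and Fgf7), 2 were lower (Fgf9 and Fgf20) and 6 did not pass, beside 22.8% higher and 28.2% lower over all genes. Fgf1, which binds all FGF receptors, was higher by 2.32 (10.17 ± 0.099 in Pak1-/- against 7.84 ± 0.034 in Pak1+/+, SD, n = 2, adjusted p = 0.00015), but its dimmer probe differed by 0.072 (adjusted p = 0.73). Fgf7, a ligand of the epithelial form of Fgfr2 usually made by stroma, was higher by 0.64 (8.75 ± 0.075 against 8.12 ± 0.083, adjusted p = 0.0040). Fgf9, which binds Fgfr3 well, was lower by 2.28 (7.07 ± 0.098 against 9.34 ± 0.080, adjusted p = 0.00018), with differences of -3.27 to -2.21 over the alternatives. Fgf20 was not well above background in Pak1-/- and was at least 1.97-fold lower there by the group means. It read 6.71 and 6.67 in Pak1-/- against 8.04 and 7.31 in Pak1+/+ (adjusted p = 0.028 by limma), so the Pak1+/+ arrays were far apart. The difference ran from -2.23 to -0.62 over the alternatives, and the call was lost without either Pak1-/- replicate. It entered the test only through the Pak1+/+ arrays, and of the 9 FGF genes above background on all 4 arrays 2 were higher and 1 was lower.

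Axl, the receptor of the TAM family that binds Gas6, was lower in Pak1-/- cells. Its single probe (A_55_P2051414, chr7:26542541-26542600, minus strand) read 11.22 and 11.03 in Pak1-/- against 12.78 and 12.78 in Pak1+/+. The difference of -1.65 (SE 0.090, 95% interval -1.89 to -1.42, adjusted p = 0.00040) is a ratio of 3.15, larger in size than that of all but 5.19% of genes tested. It ranged from -1.75 to -1.56 over the alternatives and stayed past the threshold in each. The other TAM receptors did not pass: Tyro3 differed by -0.14 (adjusted p = 0.16) and Mertk by -0.48 (7.11 and 7.08 against 7.84 and 7.29, adjusted p = 0.10), the latter past the threshold once Pak1+/+ replicate 2 was left out.

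The ligand moved against the receptor. Gas6, the vitamin K-dependent ligand with the highest affinity for Axl, read 13.98 and 13.89 in Pak1-/- against 8.08 and 7.70 in Pak1+/+. Its difference of 6.04 (adjusted p = 7.2e-05) was the largest of the ligands measured, with every Pak1-/- value far above every Pak1+/+ value. Pros1 (protein S), the other TAM ligand, which acts mainly on Tyro3 and Mertk, was higher by 0.94 (12.63 ± 0.099 against 11.69 ± 0.010, SD, n = 2, adjusted p = 0.0012).

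Ddr1, a receptor for fibrillar and basement membrane collagens that is typical of epithelium, was higher in Pak1-/- cells. Its probe (A_55_P2077313, chr17:35818513-35818572, minus strand) read 14.01 and 13.92 in Pak1-/- against 12.48 and 12.56 in Pak1+/+. The groups lay far apart for a difference of 1.45 (SE 0.078, 95% interval 1.24 to 1.65, adjusted p = 0.00038), a ratio of 2.73, and the alternatives gave 1.40 to 1.54. Ddr2, the collagen receptor of mesenchymal cells, was also higher on its brightest probe (7.40 and 7.61 against 7.06 and 6.96, difference 0.49, adjusted p = 0.015). That probe was above background on 1 of the 2 Pak1+/+ arrays, its difference ran from 0.39 to 1.08 over the alternatives, the call was lost without Pak1+/+ replicate 2 (adjusted p = 0.067), and the second Ddr2 probe differed by 0.24 (adjusted p = 0.22). Among the fibroblast markers, the collagen gene Col1a1 was higher as well (9.10 ± 0.31 against 7.98 ± 0.072, adjusted p = 0.0051) and Col1a2 did not pass (0.025, adjusted p = 0.82).

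Kit, the receptor for stem cell factor, was lower by a modest amount. Its probe (A_66_P128434, chr5:76052394-76052453) read 13.69 and 13.60 in Pak1-/- against 14.30 and 14.21 in Pak1+/+. The groups did not overlap (difference -0.61, SE 0.078, 95% interval -0.82 to -0.41, adjusted p = 0.0036), but 27.2% of all genes tested changed by as much or more. Its ligand Kitl did not pass, at 8.75 ± 0.093 against 8.84 ± 0.021 (difference -0.090, adjusted p = 0.39). Mast cells also carry Kit. Of their 6 markers, 3 were above background on no array, and the 2 tested, Tpsb2 and Cma1, were lower in Pak1-/- cells, beside 28.2% of all genes. That count was 2 or 3 in 8 of 15 alternatives and 1 in the others, among them the scanner's processed signals and the fits without Pak1-/- replicate 2, Pak1+/+ replicate 1 or Pak1+/+ replicate 2. The summed linear level of the list ran from 1451 to 1707 in Pak1-/- and from 2097 to 2208 in Pak1+/+, and its part in the Kit value was not tested.

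Kit lies between Pdgfra and Kdr in the order of protein-coding genes on chromosome 5 (GRCm38.p6), a group of related receptors born by duplication. Pdgfra, the receptor for most PDGF dimers, did not pass. Its probe (A_51_P345649, chr5:75593888-75593947, spotted 10 times per array) read 8.29 and 8.13 in Pak1-/- against 8.42 and 8.32 in Pak1+/+. The values did not overlap, but the groups were close beside the spread within them (difference -0.16, SE 0.090, adjusted p = 0.20), and the 95% interval of -0.40 to 0.08 leaves room for a change of either sign. The brightest Kdr probe differed by 0.043 (adjusted p = 0.78), and a second Kdr probe, not above background on either Pak1+/+ array, was at least 2.17-fold higher in Pak1-/-. Pdgfrb, the PDGF receptor of pericytes, read 6.21 and 6.40 against 6.51 and 6.13 and was above background on no array, so only its dimness is known. Of the 2 other receptors of this structural class, Csf1r differed by 0.12 (adjusted p = 0.58) and Flt3 by 0.062 (adjusted p = 0.58).

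All 4 PDGF genes were higher in Pak1-/- cells, whereas neither of their receptors gave a call, Pdgfra having missed the threshold and Pdgfrb being too dim. Pdgfb read 14.92 and 14.39 against 12.21 and 12.61 (difference 2.25, adjusted p = 0.0019), and its second probe differed by 1.71. Pdgfc differed by 1.47 (13.41 ± 0.19 against 11.94 ± 0.026, adjusted p = 0.00093). Pdgfa differed by 1.40 (16.67 ± 0.049 against 15.28 ± 0.067, adjusted p = 0.00041), with 1.33 on its second probe. Pdgfd, which acts through Pdgfrb, differed by 0.99 (9.06 ± 0.12 against 8.07 ± 0.086, adjusted p = 0.0017).

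**Figure D3:**
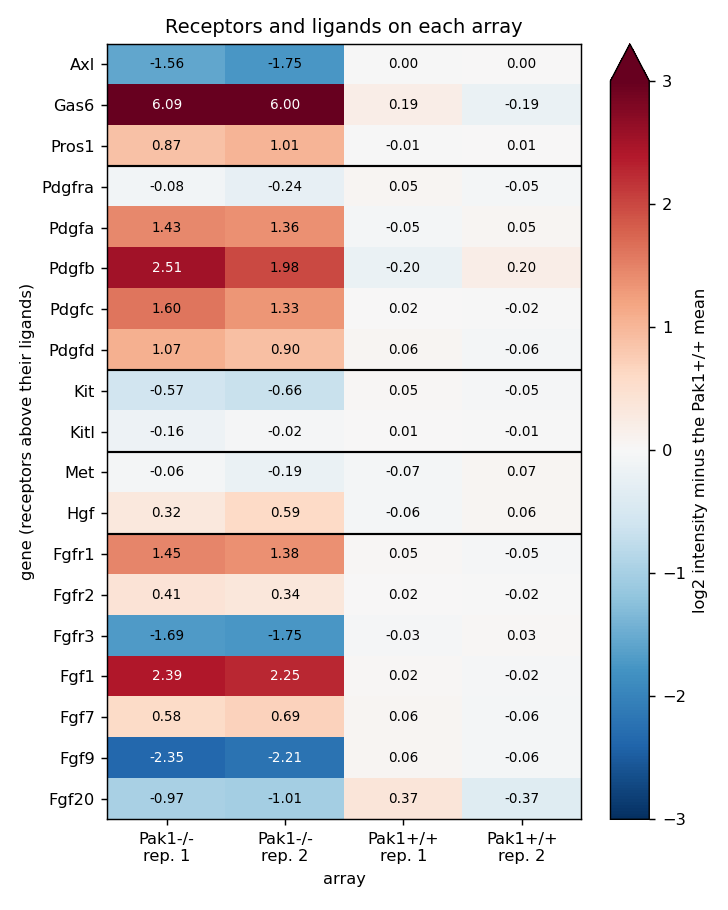
Log2 intensity minus the Pak1+/+ mean (colour and printed value) on each of the 4 arrays (columns) for tested receptors followed by their ligands (rows), with lines between receptor families and colour saturating at 3; the FGF ligands shown are the 4 that passed. Axl is blue in both Pak1-/- columns where Gas6 is the darkest red, and the PDGF genes are red below a nearly white Pdgfra.

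Met, the receptor for hepatocyte growth factor, did not pass. Its probe, printed above and spotted 10 times per array, read 10.91 and 10.78 in Pak1-/- against 10.91 and 11.04 in Pak1+/+. The groups overlapped, and the difference of -0.13 (SE 0.090, adjusted p = 0.29, 95% interval -0.37 to 0.11) was smaller in size than that of 76.7% of genes tested. One of the 40 Met spots carried an outlier flag and was left out. Mst1r (Ron), the receptor for macrophage-stimulating protein, read 6.33 and 6.29 against 6.32 and 6.30 and was above background on no array.

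Hgf, the ligand of Met, was not well above background on either Pak1+/+ array. By the group means it was at least 1.33-fold higher in Pak1-/- (7.20 and 7.46 against 6.81 and 6.93, adjusted p = 0.029). This call was lost in 4 of 11 alternatives: with no filter on dim probes, and without Pak1-/- replicate 2, Pak1+/+ replicate 1 or Pak1+/+ replicate 2 (highest adjusted p = 0.11). Mst1, the ligand of Mst1r, was likewise dim in Pak1+/+ and did not pass (6.97 and 7.22 against 6.82 and 6.80, adjusted p = 0.075). Over the 9 ligands of Met, Mst1r, Axl, Kit and the PDGF receptors, 7 were higher and none was lower by limma. All genes gave 22.8% and 28.2% at the same threshold. At an unadjusted p under 0.05 the counts were 8 and 0, where 15942 of the 27229 probes tested passed in either direction. The median difference of the 9 ligands was 0.99, beside -0.055 for all genes tested. Hgf and Mst1 were tested only because they were bright enough in Pak1-/-, and of the 7 ligands above background on all 4 arrays 6 were higher. Across alternatives the number higher ran from 4, where a 2-fold change was required, to 8.

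Both Hgf and Mst1 proteins are made as inactive precursors that serine proteases at the cell surface cut. Hpn (hepsin), one such protease, read 13.67 and 13.49 in Pak1-/- against 6.90 and 7.10 in Pak1+/+, where it was above background on 1 of 2 arrays. Its difference of 6.58 (adjusted p = 4.2e-05) was the largest of all receptor, ligand and pathway genes listed here, and ran from 6.48 to 7.69 over the alternatives. St14 (matriptase) was higher by 0.37 (adjusted p = 0.015), a call lost with the scanner's background-subtracted signals and without Pak1-/- replicate 2 or Pak1+/+ replicate 2 (highest adjusted p = 0.085). The 2 membrane-bound inhibitors of these proteases parted: Spint2 was higher by 0.77 (15.90 ± 0.0097 against 15.13 ± 0.0023, adjusted p = 0.0013) and Spint1 lower by 0.58 (14.72 ± 0.19 against 15.29 ± 0.00048, adjusted p = 0.013), with each gene's second probe on the same side (0.68 and -0.74).

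FGFs are held at the cell surface by proteoglycans and freed by carrier proteins. Fgfbp1, a secreted carrier that releases FGFs from the matrix, was lower by 4.35 on the log2 scale (7.42 and 7.32 in Pak1-/- against 11.88 and 11.57 in Pak1+/+, adjusted p = 0.00010). Its difference ran from -5.23 to -4.20 over the alternatives. Gpc1, a heparan sulphate proteoglycan, was lower by 0.61 (14.28 ± 0.065 against 14.90 ± 0.037, adjusted p = 0.0032). The syndecans Sdc1 and Sdc4 did not pass. Of the 11 genes tested for ligand activation and carriage, 3 were higher, 4 were lower and 4 did not pass, with a median of 0.11, beside 22.8% higher and 28.2% lower over all genes.

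**Figure D4:**
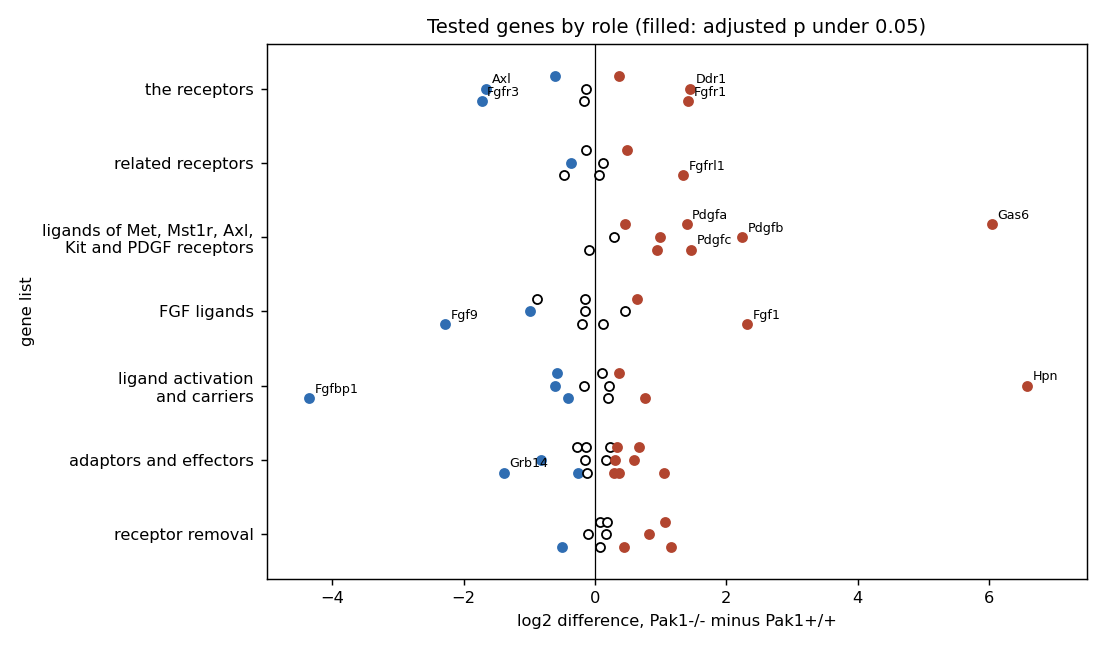
Log2 difference, Pak1-/- minus Pak1+/+ (horizontal axis), of each tested gene in the 7 lists of receptors and pathway genes (vertical axis, spread within a list for legibility), filled red or blue where the gene was past the threshold and open where it was not; names mark the widest differences. The ligand list lies mostly to the right of 0, with Gas6 at 6.04, while the 8 receptors tested spread to both sides.

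Inside the cell, 16 of 18 adaptors and effectors were tested, of which 7 were higher, 3 were lower and 6 did not pass (median 0.20). All genes gave 22.8% higher and 28.2% lower. Leaving out Pak1-/- replicate 1 left 4 higher, and leaving out either Pak1+/+ sample (replicate 1 or replicate 2) left 3. Gab1, the docking protein of Met, was higher by 1.06 (11.22 ± 0.0046 against 10.16 ± 0.055, adjusted p = 0.00067). Shc1, an adaptor to Grb2, was higher by 0.67 and Nck1, an adaptor that can bring Pak1 to receptors, by 0.59 (adjusted p = 0.0019 and 0.0035). Grb14, an adaptor that inhibits receptor signalling, was lower by 1.39 (9.68 ± 0.19 against 11.07 ± 0.13, adjusted p = 0.0015), and Sos2, an exchange factor for Ras, by 0.83 (adjusted p = 0.0019). Plcg2 was lower by 0.26 (adjusted p = 0.037; -0.41 to -0.18 over the alternatives) and lost this call in 8 of 12 alternatives, leaving out any of the 4 samples included. Grb2 and Frs2, the main FGF receptor adaptor, did not pass by their brightest probes (adjusted p = 0.23 and 0.14), although a second Grb2 probe was lower by 0.35 (adjusted p = 0.036).

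Of 10 genes that remove or dephosphorylate receptors, 4 were higher, 1 was lower and 5 did not pass (median 0.18), a share close to the 51.0% called over all genes. The receptor tyrosine phosphatase Ptprj, known to act on Met and Pdgfrb, was higher on all 4 of its probes, by 0.83 to 1.16. Ptprf (LAR) was higher by 1.07 (15.23 ± 0.11 against 14.15 ± 0.0065, adjusted p = 0.00098). The ubiquitin ligase Cblb was higher by 0.83 on its brighter probe and by 0.17 on the other, which did not pass (adjusted p = 0.12), whereas Cbl itself did not pass. Ptpn12 was lower by 0.50 (adjusted p = 0.0088). Adam10 and Adam17, which shed receptor ectodomains, did not pass.

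Markers of cell types that carry some of these receptors also differed between the groups. Their counts past the adjusted threshold stand beside 22.8% higher and 28.2% lower over all genes. Of the 8 basal epithelial markers, 7 were tested and 6 were higher in Pak1-/-, led by Krt17 (4.92) and Krt14 (2.83), with none lower by limma (6 and 0 at an unadjusted p under 0.05). Their summed linear level was 87454 to 95515 in Pak1-/- and 19279 to 19816 in Pak1+/+. Of the 8 luminal markers, 3 were higher and 1 lower, over sums of 1161987 to 1180092 and 960163 to 978653. Cdh1 was higher by 1.19 (adjusted p = 0.0012) and stayed past the threshold in the 12 alternatives run for it, while Elf3, the lower one, lost its call in 10 of 12 alternatives, Krt18 in 7 of 12 (leaving out any of the 4 samples included) and Krt8 with the scanner's processed signals. The fibroblast list, on whose cells PDGF receptors and Ddr2 are typical, had 2 genes higher (Postn and Col1a1) of 4 tested, with sums of 1953 to 3121 against 993 to 1023. Postn was at least 10.4-fold higher by the group means, but its Pak1-/- readings were far apart (10.84 and 9.66). Its log2 difference ran from 3.39 to 6.71 over the alternatives. Postn entered the test only through the Pak1-/- arrays, and of the 2 fibroblast markers above background on all 4 arrays 1 was higher. The pericyte list had 4 of 5 tested genes lower (3 or 4 in 6 of 15 alternatives and 1 or 2 in the others, among them cyclic loess, the deposited table, the replicate block with 2, and the fits without Pak1-/- replicate 1, Pak1+/+ replicate 1 or Pak1+/+ replicate 2) and sums of 45063 to 46425 against 54338 to 55086, most of it from Mcam, whose 2 probes went opposite ways (-0.24 and 1.31), while the widest difference was that of Abcc9 (-1.39, and -2.58 to -1.19 over the alternatives). By their brightest probes, none of the 3 endothelial markers tested passed in limma and 0 had an unadjusted p under 0.05 (the second Kdr probe, dim in Pak1+/+, is given above), over sums of 10077 to 10452 against 9137 to 10940. Of the 5 leukocyte markers tested, 2 were lower (Ptprc and Cd14), with sums of 104349 to 119055 against 197405 to 213752. Cd14 (15.61 ± 0.16 against 17.30 ± 0.071) made up most of the Pak1+/+ sums, and Itgam, which differed by 0.49 (adjusted p = 0.11), was also a large part of the Pak1-/- sums. The part of these cell types in the differences of the receptors was not tested.

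**Figure D5:**
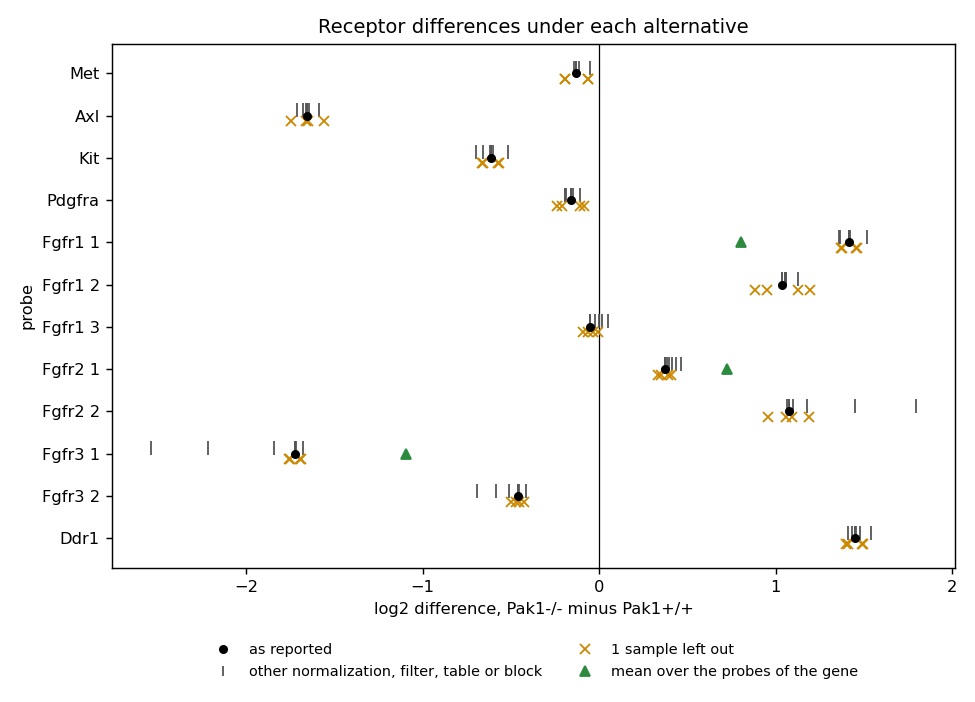
Log2 difference, Pak1-/- minus Pak1+/+ (horizontal axis), of each tested receptor probe (vertical axis) as reported (black points), with another normalization, filter, table or a replicate block (bars), with 1 sample left out (crosses) and as the mean over a gene's probes (triangles). Axl, Kit, Ddr1 and the brightest Fgfr1, Fgfr2 and Fgfr3 probes keep their side of 0 throughout, and the spread is widest for the dim Fgfr3 and Fgfr2 probes.

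Promoters of 8 of the 10 receptors were found among the 32851 RefSeq entries of GRCm38.p6, 14 promoters in all, each from 250 bases before to 50 after an annotated start; Fgfr1 and Pdgfrb had none. They were searched on both strands for the GC box (GGGCGG), the binding motif of Sp1, for the AP-1 motif (TGANTCA), the element of the Fos and Jun factors that growth factors induce, and for the interferon response motif (GAAA repeated after any 2 bases). The GC box was in 10 of the 14, beside 35.7% of all promoters, the AP-1 motif in 2 (Met and 1 start of Ddr1), beside 7.81%, and the interferon motif in none, beside 3.44%. These promoters are not independent, since the 2 for Kit overlap almost wholly and Ddr1 has 4. The receptor promoters with a GC box held 55.7% to 77.7% G and C, where the median of all promoters was 52.7%. The shares were not matched for base composition. By gene, Met, Mst1r, Axl, Kit, Fgfr3 and Ddr1 had a GC box and Pdgfra and Fgfr2 had none. The Fgfr1 promoter was not searched. Axl and Ddr1 are shown for their large, opposite differences. Capitals mark the GC box.
Axl promoter (chr7:25788684-25788983, minus strand), lower in Pak1-/-: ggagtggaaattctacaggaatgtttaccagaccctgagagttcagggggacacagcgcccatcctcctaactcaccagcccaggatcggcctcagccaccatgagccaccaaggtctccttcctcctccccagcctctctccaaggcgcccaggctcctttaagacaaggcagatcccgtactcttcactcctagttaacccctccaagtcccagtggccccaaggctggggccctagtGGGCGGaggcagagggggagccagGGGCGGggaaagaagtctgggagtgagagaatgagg
Ddr1 promoter, the start farthest upstream of 4 (chr17:35704550-35704849, minus strand), higher in Pak1-/-: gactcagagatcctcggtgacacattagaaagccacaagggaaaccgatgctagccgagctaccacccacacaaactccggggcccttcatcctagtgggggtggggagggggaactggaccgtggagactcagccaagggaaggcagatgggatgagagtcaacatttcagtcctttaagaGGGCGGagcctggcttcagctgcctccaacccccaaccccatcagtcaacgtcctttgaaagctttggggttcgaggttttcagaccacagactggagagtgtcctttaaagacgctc
The Axl stretch holds the GC box at 2 places and the Ddr1 stretch at 1, and neither holds the AP-1 motif. These are matches of letters and not measured binding.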

How the data were processed

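The deposited scanner files, made with Agilent Feature Extraction 9.5.3.1 per the file headers, hold linear spot intensity values (mean and background) and flags. The authors also deposited a log2 table of these arrays, described in their methods as normexp corrected and quantile normalized, which served as an alternative; it held values for 11 of the 14 receptor probes.

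Values were computed with limma 3.58.1 (R 4.3.3) with the normexp correction and quantile normalization that the methods name: normexp ran on the mean and background signals (offset 50), control spots were removed, and log2 values were quantile normalized. Removing outlier-flagged spots and averaging the spots of a probe were added here. Probes were fitted where at least 2 of the 4 arrays had them well above background (27229 of 39429) with lmFit and eBayes (two-sided, genotype only; 2 residual and 2.62 prior degrees of freedom), and p-values were Benjamini-Hochberg adjusted over all of them, with a threshold of 0.05. The offset, filter and threshold were also set here. The fit was also run on simulated data, from which no result is given here. The offset understates changes of dim probes, and the number of arrays limits the precision.

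Where neither array of a group had a probe well above background, its fold is a bound ("at least N-fold"). The dim side of that ratio is, on each array, the probe's reading or the dimmest reading that still counted as well above background, whichever is greater. The bright side is the mean of the other group, so the bound is one of group means and not of each array.

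Names came from the files or, for 26055 probes, from an accession match to RefSeq (GRCm38.p6). Probe positions are mm9, as deposited; promoters were credited to RefSeq. No probe named otherwise carried a receptor accession. Replicates correlated at 0.997 or above over probes and groups at 0.959 or below. The numbers of replicates do not mark a shared litter or day, and replicate deviations of the groups correlated at -0.028, so samples were not paired.

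Members and lists were chosen with earlier results of these data known; list counts and medians are descriptions. The 10 receptors, the related receptors and the 9 ligands of Met, Mst1r, Axl, Kit and the PDGF receptors are all named; from the other signalling lists (FGF ligands included), up to 3 with the largest change each way among those past the threshold. Cell type markers are given as counts and sums; those named, and genes named as not passing, were picked after their values were seen. Alternatives were offset 0, the scanner's processed signal or normexp scaled to the 75th percentile, cyclic loess, the deposited table, other filters, an adjusted p of 0.01, a 2-fold requirement, the mean over probes, a replicate block and leaving out each sample.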

Additional observations from a re-analysis of the deposited data

How the results depend on the processing

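The number of receptors past the threshold was 6 in every alternative but 4: it was 5 without Pak1+/+ replicate 1 and 5 without Pak1+/+ replicate 2 (Fgfr2 in each case), 5 at an adjusted p of 0.01 and 4 with a 2-fold change required. Of 145 alternative values of receptor probes, 141 kept their sign and their side of the threshold, and 2 lost the call (Fgfr2, above). The dimmest Fgfr1 probe, which did not pass, changed sign with the processed signals (0.020) and with cyclic loess (0.053). Over the whole array, 14132 probes passed, 8878 at an adjusted p of 0.01, 3413 with a 2-fold change required, 11831 to 13971 under other settings and 10314 to 12172 with 1 sample left out. With a replicate block 13211 passed, and no receptor lost or gained its call, although the samples share only a number. The share of passing probes that were higher in Pak1-/- was 44.9%; it was 52.4% with cyclic loess, 55.3% with a 2-fold change required and 41.8% for probes above background on all 4 arrays. Dim probes limit the sizes given for Fgfr3 and the second Fgfr2 probe, and Mst1r and Pdgfrb could not be measured.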
